A study of Mus musculus with 18 samples.

Results

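The genes described here are 34 mouse genes of glucose and lactate transport, glycolysis and the response to hypoxia-inducible factors (HIFs). They were chosen by name, with earlier results of these data known. Each gene was read on its brightest probe, among probes that carry that gene symbol alone and that had a detection p under 0.05 on at least 9 of the 18 arrays. Of the 34 genes 26 passed, among 11465 genes tested in all.

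Glycolysis turns glucose into pyruvate in the cytosol, and lactate dehydrogenase turns pyruvate into lactate. When oxygen falls, the prolyl hydroxylases that mark the α subunits of HIFs for destruction lose activity, and the HIFs then switch on many glycolytic genes together with genes for vessel growth, mitophagy and growth arrest. These hydroxylases use α-ketoglutarate, the product of the enzyme that Idh1 encodes. The Idh1R132H mutation makes that enzyme produce 2-hydroxyglutarate instead, so the level of glycolytic and HIF target mRNA is one readout of whether the pathway is altered in mutant brain.

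The 9 Tam-Idh1-KI mice carried Idh1fl(R132H)/+ with Nes-CreER(T2), a tamoxifen-inducible Cre recombinase driven by the nestin promoter, which is active in neural stem and progenitor cells. The 9 control mice were Idh1+/+ littermates with or without the Cre, and all mice of both groups received tamoxifen intraperitoneally at 50 mg/kg a day for 5 days at 5 to 6 weeks of age. The targeted allele is leaky, with a short mutant transcript made from it even where Cre has not acted. RNA came from dissected subventricular zone (SVZ), the stem cell niche beside the lateral ventricle, of mice on a c57bl6 background aged 5 to 9 months (median 5 in Tam-Idh1-KI and 6 in control). Tam-Idh1-KI comprised 5 females and 4 males, and control 3 females and 6 males; all 3 Tam-Idh1-KI mice of the second hybridisation day were female. Each array was taken as 1 mouse.

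The arrays were hybridised on 2 days. The first day held 6 mice of each group and the second day 3 of each, and the mice of the second day were the older ones. Mean signal per array ranged from 460.2 to 904.9 in Tam-Idh1-KI and from 454.2 to 678.7 in control, 44.6% to 50.9% of probes were detected, and the arrays correlated at 0.958 to 0.991. Markers of neurons (17 of 20), astrocytes (15 of 16), ependymal cells (15 of 20) and neuroblasts (12 of 15) were detected in the tissue. Idh1 itself had a log2 fold change of -0.37 (SE 0.10, n = 9 per group; limma adjusted p = 0.212), which the array cannot divide between the mutant and the normal allele. A signal on 1 probe cannot be set against that of another, so each gene below is compared only with itself across mice. In whole tissue, fewer cells of a type and less RNA per cell cannot be told apart.

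HIFs bind a short core in DNA, ACGTG or GCGTG. Promoters of the genes were searched for it on both strands, over the 250 bases before each start in the RefSeq promoter sequences (GRCm38.p6). The core was present in 37 of 47 promoters (78.7%) belonging to 31 of the 34 genes, and in 28 of those 31 genes in at least 1 promoter. Over all 32851 promoters the share was 38.6%. The promoters of these genes were also richer in G and C, with a median of 61.6% against 52.4%. The 4 windows below run from the first to the last core with 10 bases on each side, on the strand of the gene. They show Ddit4 and Pgam1, the genes with the lowest p in the comparison, beside Ldha and Pgk1, 2 glycolytic genes known to respond to hypoxia. Capitals mark a core on either strand, and 6 capitals in a row hold 2 overlapping matches.
Ddit4 (chr10:59951871-59951967, minus strand): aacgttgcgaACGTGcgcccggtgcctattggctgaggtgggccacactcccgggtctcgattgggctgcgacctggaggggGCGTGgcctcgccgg
Pgam1 (chr19:41911686-41911797, plus strand): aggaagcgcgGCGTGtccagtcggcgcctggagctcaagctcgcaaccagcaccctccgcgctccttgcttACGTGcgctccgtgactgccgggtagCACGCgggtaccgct
Ldha (chr7:46845649-46845784, plus strand): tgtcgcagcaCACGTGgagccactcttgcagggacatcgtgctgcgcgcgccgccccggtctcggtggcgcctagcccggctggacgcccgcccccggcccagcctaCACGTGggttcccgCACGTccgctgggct
Pgk1 (chrX:106186940-106186983, plus strand): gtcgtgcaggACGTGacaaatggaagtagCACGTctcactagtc
Ddit4 thus had 2 matches, Pgam1 3, Ldha 5 in the richer of its 2 annotated promoters, and Pgk1 2. A match describes the letters and does not show that a factor binds there.

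None of the 26 measured genes differed between Tam-Idh1-KI and control SVZ past an adjusted p of 0.05, by limma with genotype, hybridisation day and sex in the model. Over all genes 0.174% did (20 of 11465, or 8 with the replicate number as a block), and the smallest adjusted p of the 26 genes was 0.469. At an unadjusted p under 0.05 there were 2, Ddit4 and Pgam1, both lower. That is 7.69% of the 26 genes, against 9.57% of all genes in either direction (3.14% lower and 6.43% higher). Over both hybridisation days together the groups overlapped for each of the 26 genes, and 0.0349% of all genes had groups that did not. Many genes differed between the days, which widens these ranges, so the overlap says little about genotype. Changes were small. The log2 fold change was within 0.1 of no change for 21 of 26 genes (80.8%, against 56.8% of all genes), and its median size was 0.044 against 0.084 over all genes. The sign leaned downward: 7 genes had a positive and 19 a negative log2 fold change, whereas 54.5% of all genes were positive. Under the other processing settings 6 to 12 of the genes were positive. The median was -0.01 over the 26 genes and 0.01 over all genes.

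The precision bounds what could have been missed in the whole tissue, on the brightest probe of each gene. It does not bound the change within recombined cells. The paper cautions that its SVZ tissue may have held some non-induced cells, which would dilute effects. The standard error of the log2 fold change ran from 0.06 to 0.19 with a median of 0.10. The whole 95% interval lay within a 1.5-fold change for 24 genes and within 2-fold for all 26. The narrowest was that of Aldoc, brain-type aldolase, at 0.991-fold (95% interval 0.906 to 1.08). On the log2 scale Hk1 (0.633-fold to 1.11-fold), Pfkfb3 (0.766 to 1.32) and Ankrd37 (0.743 to 1.26) had the widest.

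**Figure D1:**
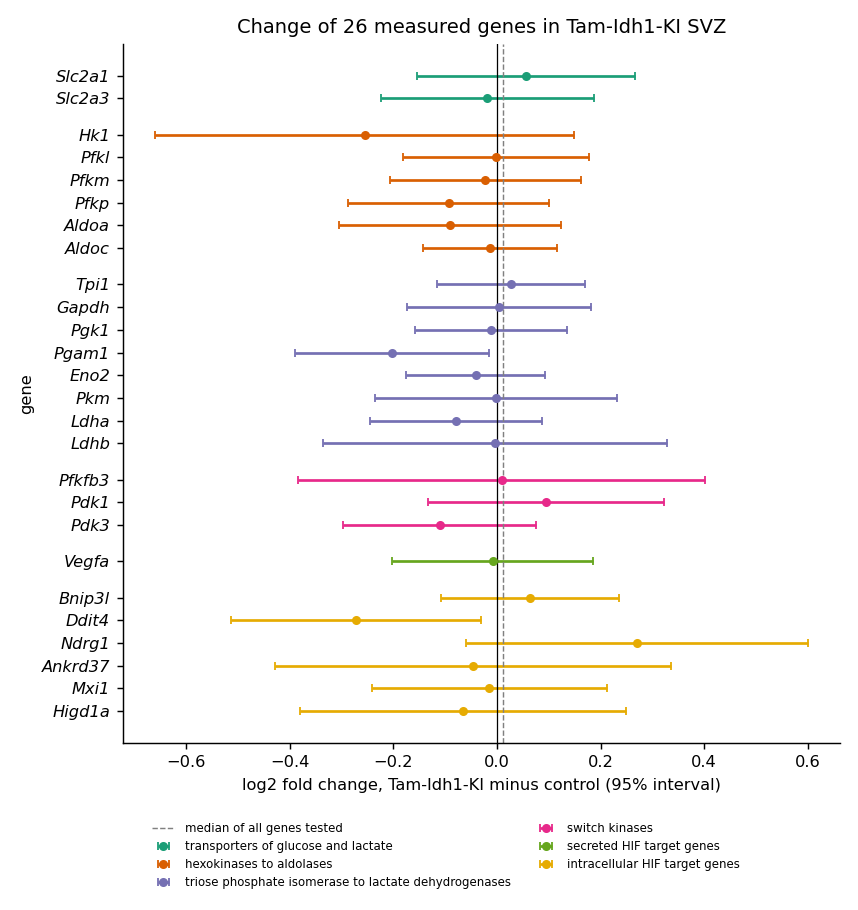
Log2 fold change of each measured gene (Tam-Idh1-KI minus control, points) with its 95% interval (bars), 9 mice per group, grouped by role, and with the median of all 11465 genes as a dashed line. Only the intervals of Pgam1 and Ddit4 lie wholly on 1 side of 0, and 21 of 26 points lie within 0.1 of it.

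Glucose transport was measured through 2 of 4 transporters. Slc2a1, the glucose transporter GLUT1 of the blood-brain barrier and of glia, ran from 11.37 to 12.95 (median 11.90) on the log2 scale in Tam-Idh1-KI and from 11.56 to 12.73 (median 11.78) in control. This is a log2 fold change of 0.06 (SE 0.10, adjusted p = 0.928). Slc2a3, the neuronal transporter GLUT3, gave -0.02 (SE 0.10). On the second hybridisation day its groups did not overlap, with 11.72 to 11.88 in 3 Tam-Idh1-KI and 11.98 to 12.16 in 3 control mice, whereas on the first day they did. Groups without overlap on the second day were found for 2 of the 26 genes (7.69%), Slc2a3 lower and Pdk1 higher, and for 13% of all genes. On the first day they were found for 0 of the 26 and 0.384% of all genes. Slc16a1 and Slc16a3, the lactate transporters MCT1 and MCT4, were detected on at most 0 and 6 arrays and were not tested. Markers of endothelial and mural cells were positive for 11 of 16, with a median log2 fold change of 0.06 and a summed signal of 7999 to 13850 in Tam-Idh1-KI and 7562 to 11050 in control. Their part in the Slc2a1 values was not tested.

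The upper part of glycolysis, from hexokinase to aldolase, showed 6 negative log2 fold changes among 6 measured genes, with a median of -0.06 and none past either threshold. Hk1, the hexokinase that commits glucose to the cell in brain, had the largest. Its log2 signal was 7.34 at the lowest, 7.80 at the median and 8.90 at the highest in Tam-Idh1-KI, and 7.60, 8.12 and 8.86 in control. The highest value of all belonged to a Tam-Idh1-KI mouse, and 7 of 9 Tam-Idh1-KI mice were below the control mean of their day. On the first day the medians were 7.81 and 8.34, and on the second 7.45 and 7.62, with overlap on both days. The log2 fold change was -0.26 (SE 0.19, limma adjusted p = 0.758), an estimate with a residual spread above that of 93.1% of all genes.

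Hk1 had a second detected probe, whose log2 fold change was -0.32 (SE 0.12, unadjusted p under 0.05, limma adjusted p = 0.411 over all kept probes). The 3 phosphofructokinases, which catalyse the committed step of glycolysis, were close to no change on their brightest probes. Pfkl (liver type) gave a log2 fold change of -0.0015 (SE 0.09), Pfkm (muscle type) -0.02 (SE 0.09) and Pfkp (platelet type) -0.09 (SE 0.09). Dimmer probes of these genes were also detected. That of Pfkl gave 0.11 (SE 0.17), those of Pfkm -0.12 (SE 0.08) and -0.26 (SE 0.08, unadjusted p = 0.00523, adjusted p = 0.304), and those of Pfkp -0.16 (SE 0.08) and -0.19 (SE 0.12). Probes of 1 gene can read different transcripts, and which transcripts these read was not analysed here. Over all detected probes of the 26 genes, 30 of 40 were negative, 0 passed the adjusted threshold (0.0975% of 18460 kept probes did) and 4 had an unadjusted p under 0.05 (9.16% of kept probes). Aldoa, the ubiquitous aldolase, gave -0.09 (SE 0.10) with 8 of 9 Tam-Idh1-KI mice below the control mean of their day, and Aldoc, which is also a marker of astrocytes, -0.01 (SE 0.06). Hk2 and Gpi1 had no probe that names them alone.

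The lower part of glycolysis, from triose phosphate isomerase to lactate dehydrogenase, had a median log2 fold change of -0.01 over 8 measured genes, 2 positive and 6 negative. Pgam1, phosphoglycerate mutase, was the exception in size. Its log2 signal was 9.85, 10.42 and 10.86 (lowest, median, highest) in Tam-Idh1-KI and 9.96, 10.55 and 11.06 in control. The groups overlapped, and 8 of 9 Tam-Idh1-KI mice were below the control mean of their day. Medians were 10.57 against 10.84 on the first day and 9.87 against 10.17 on the second. Its log2 fold change was -0.20 (SE 0.09, unadjusted p = 0.0362, adjusted p = 0.485), or 0.869-fold (95% interval 0.763 to 0.99). The unadjusted p was under 0.05 in 7 of the 18 fits that leave out 1 mouse, and the log2 fold change stayed between -0.25 and -0.17. A dimmer Pgam1 probe, detected on all 18 arrays, gave -0.13 (SE 0.14, limma unadjusted p = 0.36). On the mean of its detected probes Pgam1 did not have an unadjusted p under 0.05.

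The enzymes on either side of Pgam1 moved less. Tpi1, triose phosphate isomerase, gave 0.03 (SE 0.07). Gapdh, glyceraldehyde-3-phosphate dehydrogenase and a common reference gene, gave a log2 fold change of 0.0037 (SE 0.08, 95% interval 0.887-fold to 1.13-fold). Pgk1, phosphoglycerate kinase, gave -0.01 (SE 0.07), Eno2, neuronal enolase, -0.04 (SE 0.06), and Pkm, pyruvate kinase, -0.0020 (SE 0.11). The lactate dehydrogenase subunits Ldha and Ldhb gave -0.08 (SE 0.08) and -0.0040 (SE 0.16). None of these 7 was past either threshold. Pkm differed in spread, with an SD within day of 0.31 in Tam-Idh1-KI and 0.11 in control, and Ldha likewise with 0.19 and 0.10, neither of which was tested. Eno1 had no probe that names it alone.

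Isoenzymes of 1 step were compared as a ratio within each mouse, for the 5 pairs in which both were measured. The log2 ratio of Ldha to Ldhb, which differ in their preference for making or using lactate, changed by -0.08 (95% interval -0.49 to 0.34) between control and Tam-Idh1-KI. The ratio of Pfkm to Pfkp changed by 0.07 (-0.17 to 0.31), that of Aldoa to Aldoc by -0.08 (-0.27 to 0.12) and that of Slc2a1 to Slc2a3 by 0.07 (-0.27 to 0.42). Pdk1 to Pdk3 changed the most, by 0.21 (-0.09 to 0.50). Each interval includes 0, which leaves room for shifts up to its bounds.

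The 3 kinases that set the balance between glycolysis and mitochondrial oxidation were also measured. Pdk1, pyruvate dehydrogenase kinase 1, which keeps pyruvate out of the mitochondrial cycle and is induced by HIF1, ran from 7.67 to 8.28 (median 7.99) in Tam-Idh1-KI and from 7.59 to 8.28 (median 7.85) in control. The ranges were nearly the same, and 6 of 9 Tam-Idh1-KI mice were above the control mean of their day. On the second day the groups did not overlap, with 7.90 to 8.12 in 3 Tam-Idh1-KI and 7.83 to 7.87 in 3 control mice, whereas on the first day they did. Over both days the estimate was 0.09 (log2 fold change, SE 0.11, adjusted p = 0.876). A dimmer Pdk1 probe, detected on 9 arrays, gave -0.07 (SE 0.16). Pdk3 gave -0.11 (SE 0.09, adjusted p = 0.782). Pfkfb3, which makes the allosteric activator of phosphofructokinase, was detected on just 9 arrays and gave 0.01 (SE 0.19).

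Among the HIF target genes outside glycolysis 7 of 10 were measured, with 2 positive and 5 negative log2 fold changes and a median of -0.01. Vegfa, the angiogenic growth factor, ranged from 9.80 to 10.41 (median 10.12) in Tam-Idh1-KI and from 9.84 to 10.41 (median 10.09) in control, ranges over both days that all but coincide. Its log2 fold change was -0.01 (SE 0.09, 0.994-fold, 95% interval 0.869 to 1.14). A dimmer Vegfa probe gave -0.13 (SE 0.13). The 2 other secreted products, Adm (adrenomedullin) and Stc2 (stanniocalcin 2), were detected on at most 6 and 0 arrays.

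Ddit4, also called REDD1, which restrains mTORC1 under hypoxia and other stress, had the lowest p of the 26 genes. Its log2 signal was 9.19, 9.87 and 10.24 (lowest, median, highest) in Tam-Idh1-KI and 9.61, 10.06 and 10.60 in control. The Tam-Idh1-KI values were shifted down but overlapped the controls, and 8 of 9 were below the control mean of their day. The medians were 9.91 against 10.08 on the first day and 9.31 against 9.91 on the second. The log2 fold change was -0.27 (SE 0.12, unadjusted p = 0.0294, adjusted p = 0.469), or 0.828-fold (95% interval 0.701 to 0.979). The unadjusted p was no longer under 0.05 without Tam-Idh1-KI replicate 4, 7 or 9 or control replicate 2 or 6, and the log2 fold change stayed between -0.32 and -0.20 whichever mouse was left out. With the replicate number as a block it was not under 0.05 either, at a log2 fold change of -0.22.

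Ndrg1, a differentiation-related protein that is induced by hypoxia and abundant in myelinating glia, had the largest positive change. Its log2 signal was 9.74, 10.27 and 11.23 in Tam-Idh1-KI and 9.43, 10.24 and 10.86 in control. Over both days the 2 group medians were alike. By day they were 10.57 in Tam-Idh1-KI against 10.46 in control on the first, and 9.87 against 9.68 on the second. In all 6 of 9 Tam-Idh1-KI mice were above the control mean of their day, and 2 of the first day, replicates 3 and 4, exceeded all controls. The log2 fold change was 0.27 (SE 0.16, adjusted p = 0.639), and a second probe gave 0.25 (SE 0.16). Markers of mature oligodendrocytes moved with it: 11 of 11 were positive, at a median log2 fold change of 0.21. None passed the adjusted threshold, and 2 (18.2%) were higher at an unadjusted p under 0.05, against 6.43% of all genes. Relative to the control mean of the day, their mean was highest in Tam-Idh1-KI replicates 3 (0.75) and 4 (0.64), against at most 0.30 in control. Their summed signal ranged from 35380 to 82110 in Tam-Idh1-KI and from 29260 to 63420 in control. Their part in the Ndrg1 values was not tested.

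Bnip3l, or NIX, a mitophagy receptor, ran from 11.56 to 12.15 (median 11.88) in Tam-Idh1-KI and from 11.57 to 12.14 (median 11.89) in control. These ranges over both days coincide almost entirely, although 7 of 9 Tam-Idh1-KI mice were above the control mean of their day. In the model the log2 fold change came to 0.06 (SE 0.08, adjusted p = 0.887). Ankrd37, an ankyrin repeat protein and HIF1 target, gave -0.05 (SE 0.18), Mxi1, an antagonist of Myc, -0.01 (SE 0.11), and Higd1a, a mitochondrial protein of the hypoxia response, -0.07 (SE 0.15). Bnip3 was detected on at most 3 arrays.

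**Figure D2:**
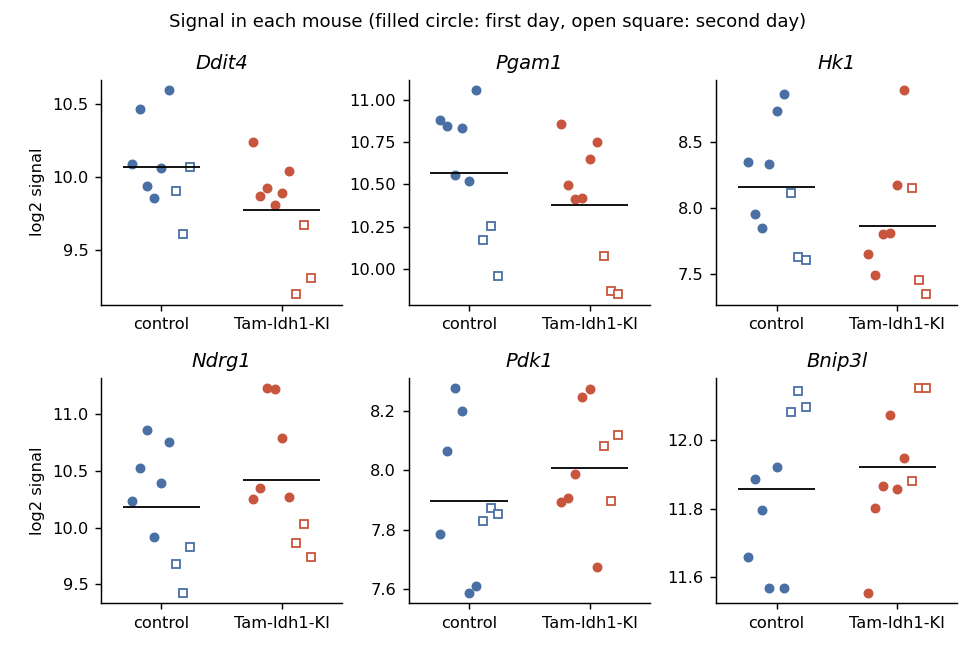
Log2 signal (y axis) in each of the 18 mice for the 3 genes with the largest negative and the 3 with the largest positive log2 fold change, with the mean of each group as a black line, filled circles for the first hybridisation day and open squares for the second. Over both days together the groups overlap in every panel, and the difference between days is larger than that between groups in each panel but Pdk1.

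The glycolytic genes were also summarised within each mouse, as the median over 14 enzyme genes of the difference from the control mean of the same day. It ranged from -0.21 to 0.21 in Tam-Idh1-KI (median -0.10, SD within day 0.15) and from -0.08 to 0.11 in control (median -0.01, SD within day 0.07). The Tam-Idh1-KI mice extended past the controls on both sides, with replicate 7 at 0.21 and replicate 9 at -0.21, both of the second day. Below 0 were 6 of the 9 mice. The 7 HIF target genes gave -0.23 to 0.15 in Tam-Idh1-KI and -0.21 to 0.19 in control. Replicate 7 was the highest of the Tam-Idh1-KI mice in the first summary and the lowest in the second. Neurons have a high demand for glucose. Their markers had a negative log2 fold change for 13 of 17, with a median of -0.09 (0 past either threshold). Their mean was below the control mean of the day in 8 of 9 Tam-Idh1-KI mice, with a range of -0.24 to 0.15 against -0.09 to 0.12 in control. The exception, replicate 6 at 0.15, had the second highest glycolytic median (0.16), whereas replicate 7, with the highest, was below every control for neuron markers. The summed signal of the neuron markers was 118900 to 150900 in Tam-Idh1-KI and 124700 to 140600 in control, and 3 of the 20 (Snap25, Nefl and Adora2a) were not measured. Eno2 is on that list as well as among the 26 genes. The part of neuron content in the glycolytic values was not tested.

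**Figure D3:**
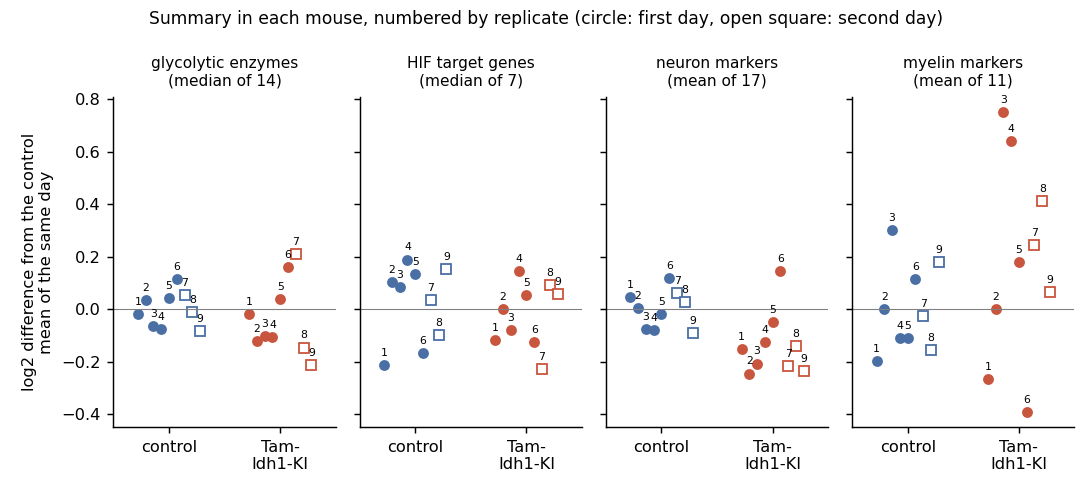
Each mouse as a log2 difference from the control mean of its hybridisation day (y axis), labelled with its replicate number, for the median of 14 glycolytic enzyme genes, the median of 7 HIF target genes, and the mean of 17 neuron and 11 mature oligodendrocyte (myelin) markers. Tam-Idh1-KI mice spread from -0.21 to 0.21 for the glycolytic genes, around controls at -0.08 to 0.11, and 8 of 9 are below 0 for the neuron markers.

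The same genes differed far more between hybridisation days than between genotypes. Between the second and the first day 20 of the 26 genes passed the adjusted threshold, 8 higher and 12 lower, when 63.8% of all genes did. The median size of the difference was 0.395 on the log2 scale for the 26 genes and 0.409 for all genes. Slc2a1 was higher by 0.98 (SE 0.11), Higd1a by 1.10 (SE 0.16), Mxi1 by 0.71 (SE 0.12) and Eno2 by 0.49 (SE 0.07). Aldoa fell by 0.92 (SE 0.11), Pkm by 0.86 (SE 0.12), Ldha by 0.79 (SE 0.09), Ndrg1 by 0.75 (SE 0.17), Pgam1 by 0.68 (SE 0.10) and Gapdh by 0.66 (SE 0.09), each with an adjusted p under 0.05 by limma. Mice of the second day were also older, so hybridisation day and age cannot be told apart. Males and females differed in 0 of the 26 genes (0.0262% of all genes), and the change with genotype differed between days or between sexes in 0 of them, when 0% and 0.00872% of all genes passed. At an unadjusted p under 0.05 the first of these interactions took 1 of the 26 genes, Pfkfb3 (difference of -0.96, SE 0.35, limma adjusted p = 1), and the second 0. Over all genes the shares were 2.9% for the interaction with day and 3.38% for that with sex.

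**Figure D4:**
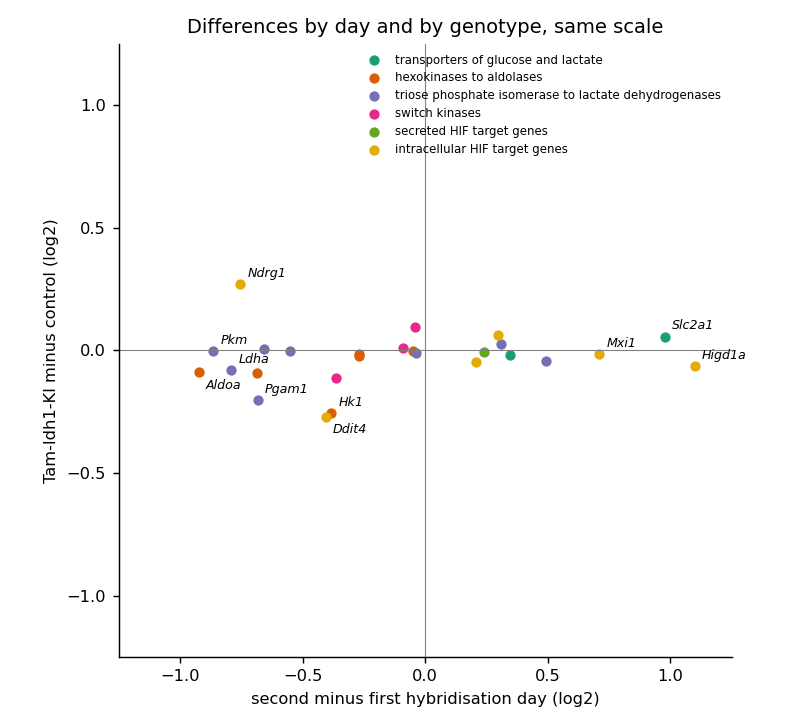
Log2 difference of each measured gene between hybridisation days (x axis, second minus first) and between genotypes (y axis, Tam-Idh1-KI minus control), both axes on the same scale, coloured by role. The points span from -0.92 to 1.10 along x and from -0.27 to 0.27 along y.

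Other genes of the pathway leaned to negative values in glycolysis and to positive values in the wider HIF response. Of 44 further genes of glycolysis, glycogen and pyruvate metabolism, 27 were measured, 8 with a positive and 19 with a negative log2 fold change (median -0.03). None passed the adjusted threshold, and 1 was lower and 0 were higher at an unadjusted p under 0.05. The 1 of 27 is 3.7%, against 3.14% lower among all genes, and 70.4% of the list was negative, against 45.5% of all genes. The gene was Bpgm, which makes the 2,3-bisphosphoglycerate of red cells. Its log2 fold change was -0.44 (SE 0.13, adjusted p = 0.25), with all 9 Tam-Idh1-KI mice below the control mean of their day. Bpgm was near background, detected on just 12 arrays at a mean log2 signal of 5.37 in Tam-Idh1-KI and 5.79 in control. Erythroid markers were negative for 6 of 6 with a median of -0.28, and their summed signal was 24680 to 48450 in Tam-Idh1-KI and 29620 to 62540 in control. Their part in the Bpgm values was not tested. Next in order of p were Tigar, a fructose-2,6-bisphosphatase (-0.32, SE 0.15), and Dld, the E3 subunit of pyruvate dehydrogenase (-0.20, SE 0.11). Tigar was also near background, detected on just 10 arrays at a mean log2 signal of 5.17 in Tam-Idh1-KI and 5.47 in control.

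Of 36 further HIF target genes 29 were measured, 20 with a positive and 9 with a negative log2 fold change (median 0.04). None passed the adjusted threshold, and 4 were higher and 0 lower at an unadjusted p under 0.05. The 4 are 13.8%, against 6.43% higher and 9.57% in either direction among all genes. Of the list 69% was positive, against 54.5% of all genes. The list was chosen with earlier results of these data known, so neither share is independent of them. The 4 genes were Cp, the ferroxidase ceruloplasmin (0.30, SE 0.08, adjusted p = 0.195), Car9, a carbonic anhydrase (0.38, SE 0.11, adjusted p = 0.245), Plin2, a lipid droplet coat protein (0.38, SE 0.12, adjusted p = 0.283), and Cited2, a competitor of HIF for its coactivator (0.17, SE 0.07, adjusted p = 0.455). Tam-Idh1-KI mice above the control mean of their day were 9 of 9 for Cp, 8 of 9 for Car9, 8 of 9 for Plin2 and 7 of 9 for Cited2. Trf (0.32, SE 0.19) is also on the list of mature oligodendrocyte markers, and Flt1 (0.17, SE 0.08) and Kdr (-0.08, SE 0.16) on that of endothelial and mural cell markers. Ependymal cell markers were positive for 14 of 15, at a median of 0.31, with a summed signal of 11340 to 25800 in Tam-Idh1-KI and 11730 to 18410 in control. At an unadjusted p under 0.05, 7 of them (46.7%) were higher and 1 (6.67%) lower, against 6.43% and 3.14% of all genes. The part of these cell types in the HIF target values was not tested. The HIF subunits and oxygen sensors were all measured, 10 of 10, with 4 positive and 6 negative (median -0.08) and 0 past the adjusted threshold. At an unadjusted p under 0.05 there was 1 of 10 (10%), against 9.57% of all genes in either direction and 3.14% lower. It was Epas1, which encodes HIF2α, at -0.41 (SE 0.16, adjusted p = 0.421). Arnt, the partner of the α subunits, gave 0.21 (SE 0.10, adjusted p = 0.538) and was above the control mean of the day in 9 of 9 Tam-Idh1-KI mice. Hif3a gave -0.37 (SE 0.19).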

How the data were processed

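Expression was measured on 18 Illumina Mouse WG6-v2 bead arrays, 1 for each mouse. The authors deposited the bead signal of each probe, a linear intensity without normalization, and a detection p-value per probe against negative control beads. Per the submitters' processing notes these came from GenomeStudio (version not given in the sources used here). Processed log2 values of the authors, of unknown normalization, served as an alternative.

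From the intensities neqc of limma 3.58.1 (R 4.3.3) subtracted background estimated through the detection p-values, with an offset of 16. Quantile normalization of the corrected intensities followed, and then the log2 was taken. Of 45281 probes 34885 have 1 gene symbol, 18 several and 10378 none. Probes detected (p under 0.05) on at least 9 of 18 arrays were kept (21644, of which 18460 have 1 symbol), and a gene was read on its brightest kept probe, which left 11465 genes. The model in limma (lmFit, eBayes) held terms for genotype, day of hybridisation and sex, and p-values were adjusted by Benjamini-Hochberg over all genes. Interactions were fitted likewise, and isoenzyme ratios with the same linear model. Intervals are at 95%. The script was tested on simulated data. The number of arrays limits the precision, and p-values measure the spread between mice.

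Named with their values in every mouse are the genes with an unadjusted p under 0.05 and the 3 largest changes in each direction. Of each other pathway list up to 4 genes with the smallest p were to be named. Same-numbered mice deviated together from their group means (mean correlation 0.481, above 0.1 in 9 of 9 pairs), but within a hybridisation day the mean correlation was 0.0505 and 4 of 9 pairs were above 0.1. The numbers come from the sample titles. The genes and the lists were chosen with earlier results of these data known. The marker lists that the text above does not describe gave medians of 0.31 (ependymal cells, 14 of 15 positive), -0.12 (choroid plexus, 2 of 8), 0.18 (neuroblasts, 9 of 12), -0.01 (astrocytes, 7 of 15), 0.05 (oligodendrocyte progenitors, 6 of 9) and 0.07 (microglia, 10 of 12), with 0 genes past the adjusted threshold.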

Additional observations from a re-analysis of the deposited data

Results flagged for a closer look

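Tpi1 stood out because it moved in opposite directions on the 2 hybridisation days: all 6 Tam-Idh1-KI mice of the first day were above the control mean of that day and all 3 of the second day were below theirs, and the mean change on the second day was lower than on the first by 0.23 on the log2 scale (-0.229). Tested as an interaction of genotype with day in limma, with sex in the model, the difference was -0.22 (SE 0.14, adjusted p = 1). Medians on the first day were 13.55 in Tam-Idh1-KI and 13.45 in control, and on the second 13.74 and 13.89, with overlap on both days. Among 52 checks of whether 1 mouse lay far from the other 8 of its group, 0 did so, where about 1 in 20 would by chance.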

How the results depend on the processing

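The number of the 26 genes past the adjusted threshold was 0 under every alternative run: no background correction, an offset of 50, median scaling, cyclic loess, the authors' processed log2 values, no detection filter, detection on all 18 arrays, the mean of a gene's probes, other covariates, array weights, either hybridisation day alone, the methods' t-test and each mouse left out in turn. Ddit4, Pgam1, Ndrg1, Pdk1, Ldha and Eno2 kept their sign in all of them. The 2 further pathway lists had 0 genes past the threshold in each. The methods' t-test is the unpaired t-test that the paper gives for its data in general, while its methods name no test for the arrays. On the second day alone all 3 Tam-Idh1-KI mice and 1 control, replicate 8, were female. With sex in the model that fit in effect compared these mice alone. Its values are effect sizes against 1 control mouse, and its count past the threshold carries no weight. Settings for the isoenzyme ratios and the interactions were chosen after seeing the data.

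Counts moved more. With genotype alone in the model 0 of the 26 genes had an unadjusted p under 0.05 and 8 of all genes passed the adjusted threshold. The first day alone gave 0 and 4, and the methods' t-test 0 and 3. Median scaling, the authors' values and age as a covariate each gave 1 gene at an unadjusted p under 0.05. Of all genes, 4.63% had such a p with genotype alone, 6.5% on the first day and 4.69% by the methods' t-test. The share was 8.63% with median scaling, 9.39% with the authors' values and 8.73% with age. Array weights gave 61 genes past the adjusted threshold over all. With age, or on the second day alone against 1 control mouse, 12 of the genes were positive. Leaving out 1 mouse at a time, 0 to 4 genes had an unadjusted p under 0.05 (0 without Tam-Idh1-KI replicate 4 or 9 or control replicate 2 or 6, and 4 without Tam-Idh1-KI replicate 6), 7 to 12 were positive (11 without Tam-Idh1-KI replicate 3 or 4, 12 without replicate 9), and 4 to 37 of all genes passed (4 without control replicate 1 or 8, 37 without Tam-Idh1-KI replicate 6). In the fits without 1 mouse, 6.82% to 12.1% of all genes had an unadjusted p under 0.05. On the second day alone, against control replicate 8, the ratio of Aldoa to Aldoc changed by 0.22 and that of Slc2a1 to Slc2a3 by 0.52. Both values rest on that 1 control mouse.

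With the replicate number as a block in place of the day, 0 of the 26 genes passed and 8 of all genes did. Hk1 and Pgam1 had an unadjusted p under 0.05, which Ddit4 (-0.22) no longer had, and 11.2% of all genes had one. Under this pairing Slc2a3 (0.014), Gapdh (-0.024) and Ankrd37 (0.0089) changed sign.

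Log2 fold changes near 0 changed sign elsewhere too, in genes not past the threshold. With age added these were Pfkl (0.038), Pfkm (0.0021), Aldoc (0.0037), Pkm (0.060), Ldhb (0.059), Pfkfb3 (-0.040) and Vegfa (0.030). Array weights turned Tpi1 (-0.0095), Gapdh (-0.048), Pfkfb3 (-0.070), Vegfa (0.0063) and Mxi1 (0.040). The authors' values turned Pfkl (0.019), Gapdh (-0.010) and Vegfa (0.012), and cyclic loess Pfkl (3.92e-05), Gapdh (-0.0060) and Pfkfb3 (-0.012). Median scaling turned Pfkl (0.015), Gapdh (-0.014), Pfkfb3 (-0.087) and Vegfa (0.0076). Genotype alone, genotype and day, and the methods' t-test each turned Aldoc (0.019) and Vegfa (0.00057). The mean of a gene's probes turned Pfkl (0.053) and Tpi1 (-0.024), an offset of 50 turned Ldhb (0.0021) and no background correction turned it too (0.0034). On the first day alone Slc2a1 (-0.025), Slc2a3 (0.067), Pfkm (0.0041), Gapdh (-0.0048), Pgk1 (0.025) and Mxi1 (0.027) changed sign. On the second day alone, against control replicate 8 only, these were Hk1 (0.027), Pfkl (0.022), Pfkp (0.046), Aldoa (0.17), Tpi1 (-0.13), Pkm (0.10), Pfkfb3 (-0.47), Pdk3 (0.12), Vegfa (0.047), Bnip3l (-0.083) and Ankrd37 (0.15). Against the mean of all controls of that day, without sex in the comparison, Hk1 (-0.13) and Pfkp (-0.020) stayed negative. The other genes named for that day changed sign there too.

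With 1 mouse left out, these genes spanned 0: Slc2a3 (-0.080 to 0.014), Pfkl (-0.033 to 0.041), Pfkm (-0.063 to 0.021), Aldoc (-0.035 to 0.0056), Tpi1 (-0.011 to 0.068), Gapdh (-0.042 to 0.035), Pgk1 (-0.042 to 0.019), Pkm (-0.076 to 0.048), Ldhb (-0.076 to 0.083), Pfkfb3 (-0.068 to 0.088), Vegfa (-0.056 to 0.029), Ankrd37 (-0.12 to 0.10), Mxi1 (-0.056 to 0.047) and Higd1a (-0.16 to 0.024). Pfkfb3 was near background, and 8 of the 34 genes were not measured, so nothing is shown for them. Of these Hk2, Gpi1 and Eno1 had no probe that names them alone. Slc16a1, Slc16a3, Adm, Stc2 and Bnip3 were detected on too few arrays.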
